A study of Mus musculus with 6 samples.

Results

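Collagens, laminins and integrins were described here in RNA recovered with hnRNPK from Min6 cells, a mouse insulinoma line used as a model of the pancreatic beta cell. The genes were chosen by symbol: collagen chains, integrin alpha and beta subunits, laminin chains, and Agrn, Dag1, Hspg2, Nid1 and Fn1, with pseudogenes left out. The rule found 92 of the 53379 genes in the count tables, and no pseudogene matched it. Of the 92, 44 are collagen chains, 27 are integrin subunits (18 alpha and 9 beta), 14 encode laminin chains or other basement membrane proteins, and 2 are the dystroglycan gene Dag1 and the fibronectin gene Fn1. The other 5 match only by the start of their symbol and are neither collagen chains nor integrin subunits. These are Col4a3bp, Itgb1bp1, Itgb1bp2, Itgb3bp and Itgbl1.

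The study sequenced 3 libraries of RNA immunoprecipitated with an antibody against hnRNPK (IP) and 3 of total RNA from a 10% input of the lysate. Every library came from Min6 cells at passage 31 that had been kept in high glucose medium and then in 25 mM glucose with 500 µM palmitic acid for 30 h, which the labels name glucolipotoxicity. An untreated culture and an IP with a control antibody were not analysed here, so enrichment means a higher share of the IP libraries than of total RNA and cannot be told apart from retention on beads or antibody. Separate cultures are not named for the libraries of a group, so the p-values rest on a spread between libraries that may be technical.

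The extracellular matrix outside epithelial and endocrine cells includes basement membranes, sheets built from laminins, network-forming collagens, nidogen and the proteoglycans perlecan and agrin. Fibrillar collagens give tensile strength to connective tissue and are made mainly by fibroblasts. Integrins, each a pair of an alpha and a beta subunit, and dystroglycan are the cell surface receptors that hold cells to this matrix, and beta cells are known to bind laminin through integrins that contain Itgb1. hnRNPK is an RNA-binding protein with KH domains that prefer runs of cytosine in single-stranded RNA, and it takes part in splicing, mRNA stability and translation.

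Total counts were 38764925 to 46222181 in the IP libraries and 46185284 to 52735957 in total RNA. The 92 genes took 0.2105% ± 0.0183 of IP counts and 0.163% ± 0.0131 of total RNA counts (SD, n = 3 each). Itgav, Dag1 and Itgb1 together supplied 52.6% of these reads in the IP and 45.4% in total RNA. The 10 beta cell markers summed to 22210 to 31660 CPM (normalised counts scaled to a common library size, TMM factors applied) in total RNA and to 7793 to 8951 in the IP. By the test given below, 6 of these 10 were enriched in the IP and 4 depleted, so the sum does not stand for each marker. Of the 12 fibroblast and stellate cell markers Tcf21 was at 0 in all libraries, and the list summed to 2.49 to 3.80 CPM in total RNA and 7.23 to 9.84 in the IP. Endothelial markers (12 genes) summed to 15.5 to 20.8 CPM and 14.04 to 15.1, and immune markers (12 genes, 1 of them at 0 throughout) to 9.56 to 12.7 and 2.09 to 6.88. Duct and acinar markers (12 genes, 6 at 0 throughout) reached 477 to 585 CPM in total RNA and 113 to 176 in the IP, nearly all of it from Krt7 and Spp1.

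C-rich stretches of the transcripts are shown first, because cytosine runs are what hnRNPK is known to bind. The sequences are from GENCODE M21 transcripts on GRCm38, written as DNA 5′ to 3′ on the transcript strand, and capitals mark CCC triplets counted without overlap on that strand. Each is the 30-base stretch of the 3′ untranslated region (UTR) with the most such triplets. The first 4 belong to receptor mRNAs that were enriched in the IP, Dag1 (chr9:108207085-108207114, minus strand), Itgb8 (chr12:119162011-119162040, minus), Itgav (chr2:83804438-83804467, plus) and Itga3 (chr11:95044560-95044589, minus).
Dag1: agCCCgCCCtctctggtcctCCCaaaCCCc
Itgb8: tCCCtaagggcattccttgaatCCCaaCCC
Itgav: CCCttaCCCcacgagagatgcctgggaCCC
Itga3: CCCactCCCcagctctgtCCCctccaCCCc
The next 3 belong to mRNAs that were depleted, Itgb1 (chr8:128733039-128733068, plus), Itgb5 (chr16:33949001-33949030, plus) and Agrn (chr4:156165982-156166011, minus).
Itgb1: CCCCCCagcaacaattcaCCCacagtgcac
Itgb5: aacctctgaaggcctggctgCCCtcttCCC
Agrn: CCCaggctagcctggaCCCccagtgctCCC
Enriched and depleted mRNAs alike held such stretches, with 3 or 4 triplets in the enriched and 2 or 3 in the depleted examples. That step did not hold over all called members. The enriched ran from 1 triplet (Col3a1 and Col4a3bp) to 6 (Col1a1), and the depleted with a 3′ UTR had 2 (as Itgb5) or 3 (as Lama1). A stretch with at least 3 triplets made up 1.43% of 30-base windows laid end to end along the 3′ UTRs of the measured genes of this group, against 1.23% over all genes tested. Taken at any start position, at least 1 stretch of this kind was present in 30 of 55 of these 3′ UTRs (54.5%) and in 49.9% of all genes.

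Of the 92 genes, 59 passed the filter on low counts and were tested, with 17 enriched in the IP (28.8%), 7 depleted (11.9%) and 35 not called (edgeR's quasi-likelihood test with Benjamini-Hochberg adjustment over all genes tested, adjusted p under 0.05, called edgeR adjusted p from here). Among all 16929 genes tested, 28.9% were enriched and 33.6% depleted, so the share of enriched members was that of the background and the share of depleted members was lower. The median log2 fold change, IP minus total RNA throughout, was 0.31 for the 59 genes and −0.07 for all genes tested. With library totals alone in place of TMM factors the members' median was −0.12, with 14 enriched and 12 depleted, and enriched genes made up 53.8% of members' calls in place of 70.8% and 32.1% of all calls in place of 46.3%. That scaling moved the median of all genes by −0.435, so the members stayed above it by 0.388, against 0.38 with TMM. Library groups did not overlap for 32 members (54.2%), 22 with the IP higher and 10 with it lower, against 71.4% of all genes tested. Without the 5 genes matched only by the start of their symbol, 15 were enriched and 6 depleted of 54 tested. Most calls were among abundant members. Of the 21 members with a mean of at least 10 CPM, 11 were enriched and 4 depleted, beside 39.5% and 41.3% of the 9691 genes at that level. Of the 20 tested members under 1 CPM, 2 were called.

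**Figure D1:**
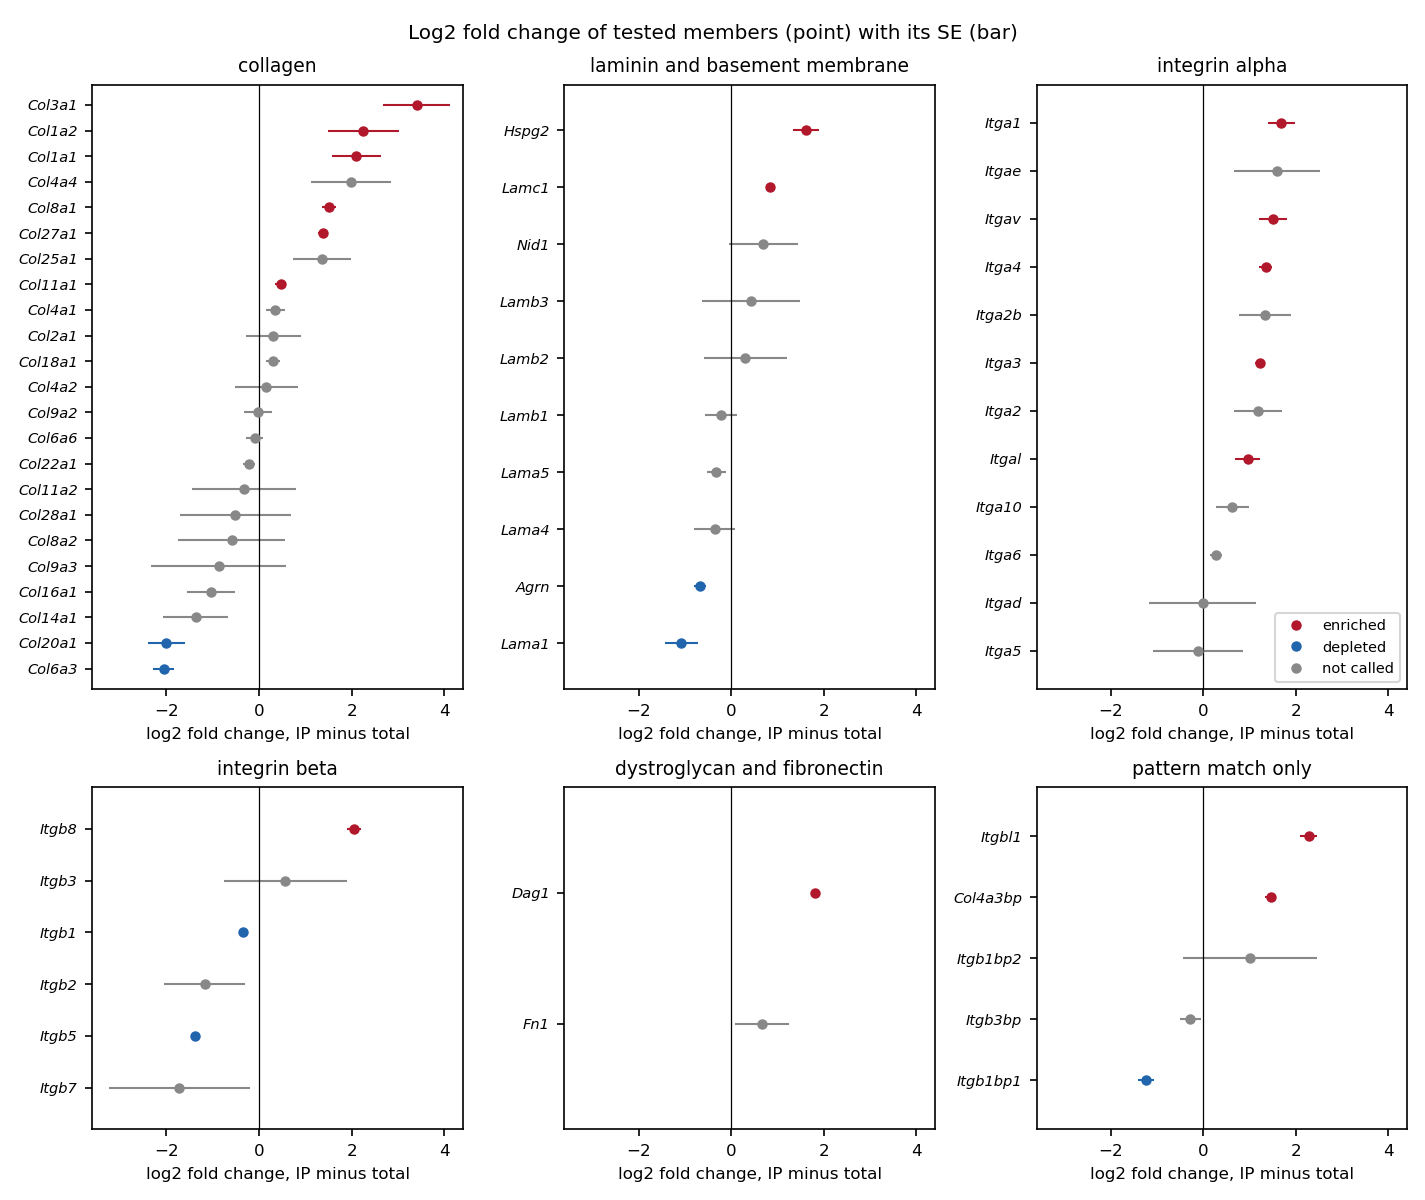
Log2 fold change (hnRNPK IP minus total RNA, horizontal axis) of 58 tested members, ordered within their families, with bars for the SE of the edgeR fit and colours for enriched, depleted and not called genes. Called integrin alpha subunits lie to the right of 0, while the integrin beta subunits run from Itgb8 at 2.05 to Itgb5 at −1.39 among called genes.

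Collagens went both ways. Of 44 collagen chains 23 were tested, and 6 were enriched (26.1%) and 2 depleted (8.7%), beside 28.9% and 33.6% of all genes tested. The collagens' median log2 fold change of 0.16 was −0.28 with library totals alone (4 enriched, 5 depleted) and −0.16 with an offset for gene length (4 and 4). The fibrillar chains held 5 of the 6 enriched collagens, 5 of 7 tested, with a median of 1.37. Fibril-associated chains, which coat fibrils and link them to other matrix, had 0 enriched and 1 depleted of 6 tested, with a median of −0.95. edgeR also gave 0 when p was left unadjusted (under 0.05), as did DESeq2 and limma-voom with adjustment.

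Col27a1, a fibrillar collagen chain of cartilage and other tissues (ENSMUSG00000045672.15, chromosome 4, 63214004 to 63334991, plus strand), had the most collagen reads. It had 204, 213 and 178 CPM in IP libraries 1, 2 and 3 and 84.1, 70.7 and 74.995 in total RNA libraries 1, 2 and 3. Every IP library stood above every total RNA library, 2.59-fold on average (log2 fold change 1.37 ± 0.11 SE; edgeR adjusted p = 1.9e-05). Col11a1, a minor fibrillar chain that helps set fibril width, had 63.7, 71.3 and 56.9 CPM in the IP libraries and 51.4, 44.1 and 43.7 in total RNA. The groups were apart by a small margin, at 0.46 ± 0.12 (edgeR adjusted p = 0.0104). Col11a1 lost its call with library totals alone (0.03; edgeR adjusted p = 0.857) and turned to −0.17 with the offset for gene length (edgeR adjusted p = 0.0968).

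The fibroblast collagens Col1a1, Col1a2 and Col3a1, which form types I and III, were called enriched at very low levels. Col3a1 had 1.15, 0.758 and 0.798 CPM in the IP libraries and 0.0803, 0.111 and 0.0565 in total RNA, or 96 reads against 14. Col1a2 had 1.36, 0.394 and 0.798 CPM in the IP libraries and 0.177, 0.241 and 0.113 in total RNA. Col1a1 had 2.98, 3.15 and 1.27 CPM against 0.450, 0.798 and 0.471, or 256 reads against 96. Log2 fold changes were 3.41 ± 0.72 for Col3a1, 2.25 ± 0.77 for Col1a2 and 2.10 ± 0.52 for Col1a1 (edgeR adjusted p = 0.00374, 0.0332 and 0.00834). All IP libraries were above all total RNA libraries for these 3 genes, but the counts are small and Col1a2 lost its call in 9 of 13 alternatives, at 1.66 to 2.56. The summed fibroblast markers also stood higher in the IP, as given above, with Thy1 (log2 fold change 1.91) and Rgs5 (1.89) called enriched, while Pdgfra, Pdgfrb, Lum, Acta2 and Postn had 0 to 16 reads in each library. Their part in the values of the 3 collagens was not tested, and bulk RNA does not show which cells the reads came from. The other fibrillar chains tested, Col2a1 (0.31 ± 0.59) and Col11a2 (−0.32 ± 1.13), were not called.

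Among network-forming collagens, Col8a1, a short chain of vessel walls and of the membrane beneath corneal endothelium, was enriched. It had 46.7, 57.1 and 41.1 CPM in the IP libraries against 18.6, 16.4 and 15.7 in total RNA, 2.86-fold higher with no overlap (log2 fold change 1.52 ± 0.15; edgeR adjusted p = 6.13e-05). The basement membrane chains Col4a1 (0.35 ± 0.21), Col4a2 (0.16 ± 0.67) and Col4a4 (1.99 ± 0.86, edgeR adjusted p = 0.0766) were not called, although the IP libraries of Col4a1 and Col4a4 lay above those of total RNA. Col4a4 was called enriched by DESeq2 (2.05), by limma-voom (2.32) and with halved counts (1.98). Col8a2, the partner of Col8a1, stood at −0.60 ± 1.15 on 24 and 55 reads. Col4a1 and Col4a2 assemble in 1 trimer in which the Col4a1 chain is present in excess. Per kb of annotated exon (the union over transcripts), the ratio of Col4a1 to Col4a2 was 8.74 ± 2.17 in total RNA and 11.2 ± 4.97 in the IP (SD, n = 3 each).

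Depleted collagens were Col6a3 of the beaded type VI filaments and the fibril-associated Col20a1. Col6a3 had 1.89, 1.88 and 2.57 CPM in the IP libraries and 9.41, 8.65 and 8.53 in total RNA, 4.18-fold lower (log2 fold change −2.06 ± 0.23; edgeR adjusted p = 0.000109). Col20a1 had 1.51, 5.04 and 2.87 CPM in the IP libraries and 10.7, 13.4 and 13.7 in total RNA, 4.02-fold lower (log2 fold change −2.01 ± 0.40; edgeR adjusted p = 0.00282). For both, even the highest IP library stayed well under the lowest total RNA library, and both kept their calls in all 15 alternatives.

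Several collagens with ample reads were not called with TMM factors and all libraries. Col18a1, the source of endostatin and a component of basement membranes, had 41.8, 30.6 and 45.8 CPM in the IP libraries and 31.7, 33.3 and 31.1 in total RNA. IP library 2 was below all total RNA libraries and IP libraries 1 and 3 were above them, and the log2 fold change was 0.30 ± 0.16. Without IP replicate 2 it was 0.45 and called (edgeR adjusted p = 0.0061). Col22a1, a chain of tissue junctions, had 17.0, 15.4 and 16.7 CPM against 18.7, 20.3 and 18.6, with the IP lower in all libraries (−0.23 ± 0.13; edgeR adjusted p = 0.161). Col6a6, a further type VI chain, had 12.8, 19.6 and 15.4 CPM against 18.9, 16.0 and 16.1, with overlapping groups (−0.10 ± 0.19). Col22a1 and Col6a6 were called depleted with library totals alone, at −0.66 and −0.53 (edgeR adjusted p = 0.00248 and 0.0372), and at the same rounded values with a gene length offset (edgeR adjusted p = 0.00394 and 0.0203). Other collagens without a call were fibril-associated Col16a1 (−1.03 ± 0.51), Col9a2 (−0.03 ± 0.31), Col14a1 (−1.37 ± 0.71) and Col9a3 (−0.87 ± 1.46), Col28a1 (−0.51 ± 1.20) and the transmembrane Col25a1 (1.36 ± 0.62). Col16a1 was called depleted with library totals alone (−1.46), with limma-voom (−1.29) and without IP replicate 2 (−0.59) or 3 (−1.59), and Col14a1 without IP replicate 3 (−2.05). All 16 IP reads of Col9a3 lay in IP library 1. Without that library the IP held no Col9a3 read, and Col9a3 was called depleted (−6.825; edgeR adjusted p = 0.0155).

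**Figure D2:**
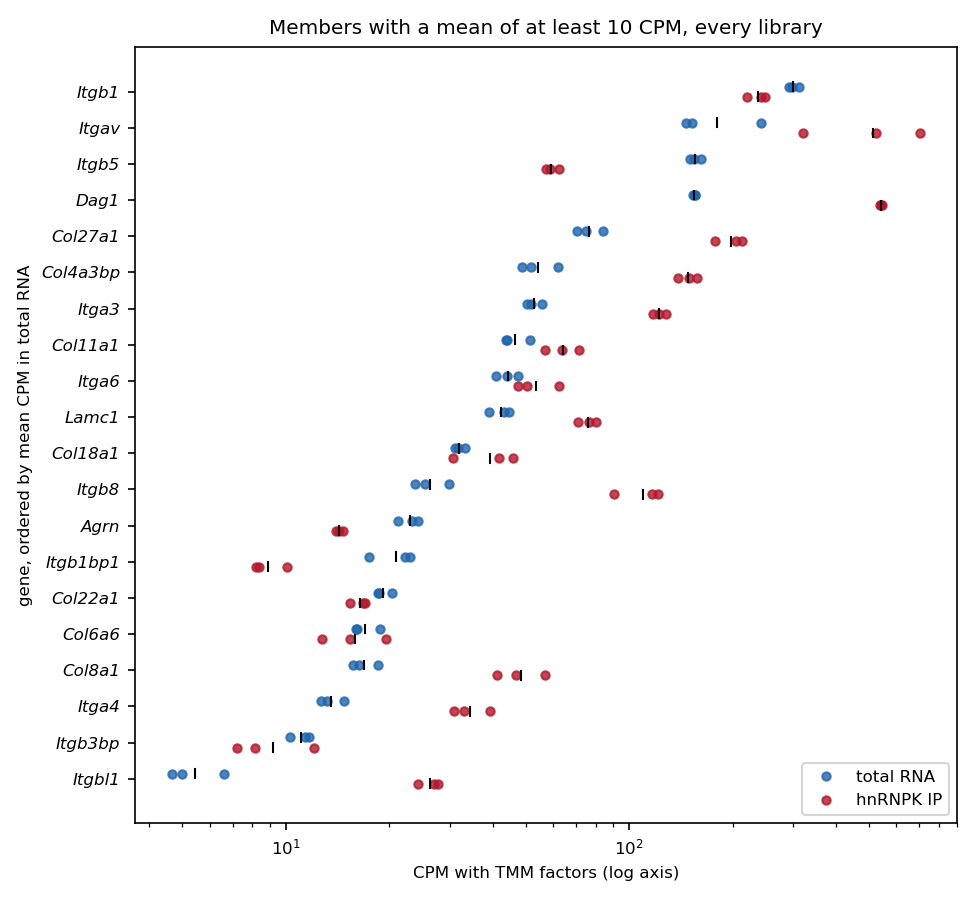
Normalised counts (CPM, logarithmic axis) of 20 members with a mean of at least 10 CPM, 1 point per library and a tick at each group mean. The 3 Dag1 points of each group lie almost on top of each other (IP 537 to 546, total RNA 153 to 156), while those of Itgav spread from 320 to 701 in the IP.

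Most laminins and other basement membrane genes were not called. Of 14 genes 11 were tested, with 2 enriched and 2 depleted (18.2% each), beside 28.9% and 33.6% of all genes tested. The median of 0.15 for these 11 was −0.28 when scaled by library totals and −0.19 with a gene length offset. Lamc1, the gamma chain shared by most laminins (ENSMUSG00000026478.14, chromosome 1, 153218922 to 153332786, minus strand), was the most abundant. It had 76.5, 80.1 and 70.8 CPM in the IP libraries and 44.5, 43.1 and 39.1 in total RNA. The groups were well apart, at 1.79-fold (log2 fold change 0.84 ± 0.10; edgeR adjusted p = 0.000153). Its partners in the laminin trimer were not called, Lamb1 at −0.22 ± 0.35 and Lama5 at −0.32 ± 0.21, although Lama5 was called depleted with library totals alone (−0.75) and with a gene length offset (−0.88). Per kb of annotated exon the ratio of Lamc1 to Lamb1 was 8.19 ± 1.38 in total RNA and 19.7 ± 9.63 in the IP, and that to Lama5 was 5.99 ± 1.10 and 13.5 ± 2.91 (SD, n = 3 each). Both ratios were higher in every IP library than in every total RNA library.

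Lama1, an alpha chain of embryonic basement membranes, was depleted at about 1 to 3 CPM (−1.07 ± 0.35; edgeR adjusted p = 0.0283). That call ended for Lama1 when any total RNA library was left out, with no filter and with the replicate block, at −1.17 to −0.96. Lama4 (−0.36 ± 0.44), Lamb2 (0.31 ± 0.90) and Lamb3 (0.43 ± 1.05) were not called. Without IP replicate 2 Lama4 was called depleted, at −0.93 (edgeR adjusted p = 0.0323).

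Agrn and Hspg2, large heparan sulfate proteoglycans that both bind laminin and dystroglycan, went opposite ways. Agrn, which encodes agrin, had 14.3, 14.7 and 13.97 CPM in the IP libraries and 23.3, 21.3 and 24.3 in total RNA. The IP was 1.60-fold lower, with no overlap (log2 fold change −0.68 ± 0.13; edgeR adjusted p = 0.00194). Hspg2, which encodes perlecan, had 11.1, 6.79 and 9.68 CPM in the IP libraries and 3.42, 3.32 and 2.28 in total RNA, 3.05-fold higher (log2 fold change 1.61 ± 0.28; edgeR adjusted p = 0.00123). Nid1, the nidogen that links laminin to collagen IV, rested on 42 reads in each group (0.70 ± 0.74). Fn1, the integrin ligand fibronectin, had 126 and 130 reads and was not called (0.67 ± 0.59).

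Among the receptors, integrin alpha subunits were enriched or not called. Of 18 genes 12 were tested, 5 enriched (41.7%) and 0 depleted, beside 28.9% and 33.6% of all genes tested. The 12 had a median log2 fold change of 1.20 (0.76 when scaled by library totals and 0.81 with a gene length offset). No alpha subunit was lower by edgeR without adjustment either (0 at p under 0.05), and DESeq2 and limma-voom each called 0 lower. Itgav, the alpha subunit of receptors for vitronectin and for latent TGF-beta (ENSMUSG00000027087.11, chromosome 2, 83724397 to 83806916, plus strand), had 522, 701 and 320 CPM in the IP. In total RNA it had 241, 152 and 146. Its lowest IP library was above its highest total RNA library, but its SE was the largest among the 21 members with at least 10 CPM (log2 fold change 1.51 ± 0.30; edgeR adjusted p = 0.00281).

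Itga3, a laminin receptor subunit that pairs with Itgb1, had 122, 117 and 128 CPM in the IP libraries and 55.7, 50.4 and 51.9 in total RNA. The libraries of each group were close together and the IP stood 2.32-fold higher (log2 fold change 1.22 ± 0.09; edgeR adjusted p = 1.26e-05). Itga6, the other main laminin receptor subunit of epithelial cells, had 47.4, 62.4 and 50.3 CPM against 47.6, 44.1 and 41.1. IP library 1 lay within the total RNA range and Itga6 was not called (0.27 ± 0.13; edgeR adjusted p = 0.106), although it was at 0.35 when only genes with at least 5 CPM were tested (edgeR adjusted p = 0.0399). Itga4, which binds fibronectin and VCAM1, had 30.8, 39.4 and 33.0 CPM in the IP libraries and 13.2, 14.8 and 12.6 in total RNA, and was enriched (1.35 ± 0.14; edgeR adjusted p = 8.48e-05). A share of 8.04% of Itga4 exons overlaps Cerkl on the opposite strand, and no source used here gives the strand setting of the counts.

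The collagen receptor subunit Itga1 was enriched at 1.69 ± 0.28 and the leukocyte subunit Itgal at 0.96 ± 0.27 (edgeR adjusted p = 0.00105 and 0.0148). Itga1 had 4.73, 8.16 and 6.41 CPM in the IP libraries against 1.85, 2.19 and 1.94. Itgal had 6.20, 12.2 and 9.53 CPM against 4.92, 4.97 and 4.46, so that its lowest IP library was near total RNA. Itgal lost its call with library totals alone (0.52; edgeR adjusted p = 0.124) and without total RNA replicate 3 (0.95; edgeR adjusted p = 0.0546). Most of the summed immune markers in total RNA, given above, came from Coro1a (log2 fold change −2.21). The 6 immune markers tested ran from −2.21 to 2.42 with a median of −0.07, and 0 were called. Laptm5 (2.42), Lyz2 (1.52) and Cd68 (0.42) had positive values and the others negative ones. The part of these markers in the value of Itgal was not tested. The remaining alpha subunits tested, Itga2, Itga2b, Itga10, Itgae, Itgad and Itga5, had log2 fold changes of −0.11 to 1.59 with SEs of 0.36 to 1.16 and were not called. DESeq2 called Itga2 (1.22) and Itga2b (1.37) enriched, and edgeR called Itga2 without IP replicate 3 (1.42) and Itga2b (1.65) and Itgae (2.11) without IP replicate 1.

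Integrin beta subunits divided. Of 9 genes 6 were tested, with Itgb8 enriched, Itgb1 and Itgb5 depleted, and Itgb2, Itgb3 and Itgb7 not called. These calls, 16.7% enriched and 33.3% depleted, stand beside 28.9% and 33.6% of all genes tested. Itgb8, a beta subunit that pairs with Itgav and takes part in activating TGF-beta (ENSMUSG00000025321.14, chromosome 12, 119158022 to 119238802, minus strand), had 117, 121 and 90.3 CPM in the IP. It had 29.9, 25.4 and 23.8 in total RNA, so that the lowest IP library was far above the highest total RNA library. The IP was 4.15-fold higher (log2 fold change 2.05 ± 0.15; edgeR adjusted p = 1.19e-05).

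Itgb5, which also pairs with Itgav and binds vitronectin (ENSMUSG00000022817.14, chromosome 16, 33829665 to 33949338, plus strand), showed the opposite. It had 58.8, 57.1 and 62.3 CPM in the IP libraries and 162, 150 and 154 in total RNA. The IP was 2.62-fold lower with little spread (log2 fold change −1.39 ± 0.09; edgeR adjusted p = 5.85e-06). The ratio of Itgb5 to Itgb8 per kb of annotated exon was 18.5 ± 1.65 in total RNA and 1.73 ± 0.367 in the IP (SD, n = 3 each). The IP ratios of 1.47 to 2.15 lay far from those of 16.9 to 20.2 in total RNA. Both kept call and direction in all 15 alternatives, at 1.495 to 2.19 for Itgb8 and −1.82 to −1.16 for Itgb5.

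Itgb1, the partner of most alpha subunits that bind laminin or collagen (ENSMUSG00000025809.15, chromosome 8, 128685654 to 128733200, plus strand), had 242, 220 and 249 CPM in the IP libraries and 311, 298 and 291 in total RNA. The groups did not overlap, but the difference was small (log2 fold change −0.34 ± 0.08; edgeR adjusted p = 0.00787). Its partner Itga3 was enriched in the same libraries, as was Itgav. The ratio of Itgb1 to Itgav per kb of annotated exon was 4.59 ± 1.04 in total RNA and 1.37 ± 0.624 in the IP (SD, n = 3 each). The low-count subunits were Itgb3 (0.57 ± 1.32), Itgb2 (−1.18 ± 0.88) and Itgb7 (−1.72 ± 1.52). All 22 IP reads of Itgb7 lay in IP library 1. Without that library the IP held no Itgb7 read, and Itgb7 was called depleted (−8.12; edgeR adjusted p = 0.0102).

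Dag1, whose product is cleaved into the alpha and beta dystroglycan subunits that bind laminin, agrin and perlecan outside the cell and dystrophin or utrophin inside (ENSMUSG00000039952.15, chromosome 9, 108204634 to 108263958, minus strand), had even values within each group. It had 546, 541 and 537 CPM in the IP libraries and 153, 155 and 156 in total RNA. The IP was 3.50-fold higher (log2 fold change 1.81 ± 0.07; edgeR adjusted p = 1.37e-06), and over the 15 alternatives the value was 1.37 to 1.89. Its ligand Agrn was depleted and its ligand Hspg2 enriched.

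The 5 genes that share only the start of a symbol followed no common direction. Col4a3bp, which encodes a ceramide transfer protein, had 158, 150 and 139 CPM in the IP libraries and 62.2, 51.6 and 48.9 in total RNA (log2 fold change 1.46 ± 0.12; edgeR adjusted p = 2.01e-05). Itgbl1, a secreted protein with integrin-like repeats, had 27.1, 27.8 and 24.3 CPM against 6.62, 4.99 and 4.67 (2.28 ± 0.18; edgeR adjusted p = 1.88e-05). Both were higher in every IP library. Itgb1bp1, a cytoplasmic protein that binds the tail of the Itgb1 product, had 8.18, 8.34 and 10.1 CPM against 17.5, 22.2 and 23.1 and was depleted (−1.24 ± 0.17; edgeR adjusted p = 0.000401). Its exons overlap those of Asap2 (11.4%) and Cpsf3 (5.54%) on the opposite strand, so its reads may be shared. Itgb3bp, a centromere protein, had 12.1, 8.16 and 7.21 CPM against 10.3, 11.4 and 11.7 with overlapping groups (−0.28 ± 0.23). It was called depleted with library totals alone (−0.71) and without IP replicate 1 (−0.57). A share of 8.59% of Itgb3bp exons overlaps Pgm1 on the opposite strand, so its reads may be shared as well. Itgb1bp2, a muscle protein, rested on 31 and 26 reads (1.00 ± 1.44).

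The order of the receptors by level differed between the groups when CPM was divided by exon length in kb. In total RNA Itgb1 was highest at 73.5 ± 2.52 CPM per kb, followed by Itgb5 at 43.8 ± 1.72, Dag1 at 24.3 ± 0.232, Itgav at 16.8 ± 4.95 and Itga3 at 9.22 ± 0.475 (SD, n = 3 each). In the IP Dag1 came first at 85.1 ± 0.733 CPM per kb, followed by Itgb1 at 58.1 ± 3.73, Itgav at 47.9 ± 17.8, Itga3 at 21.4 ± 0.963 and Itgb5 at 16.7 ± 0.744. Itgb1 and Itgav do not differ beyond their spread in the IP, where the ratio of their levels was 0.826 to 2.05 by library. The ratio of Itgb1 to Dag1 was 3.02 ± 0.133 in total RNA and 0.683 ± 0.0454 in the IP. Among matrix genes, Col27a1 (5.88 ± 0.528), Lamc1 (5.11 ± 0.340) and Col18a1 (4.57 ± 0.163) had the highest levels per kb in total RNA. That order depends on the length used, here the union of annotated exons. This union is 12744 bases for Col11a1 (3.64 ± 0.340) against 7667 in the transcript used for sequences, and 8272 against 7622 for Lamc1.

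**Figure D3:**
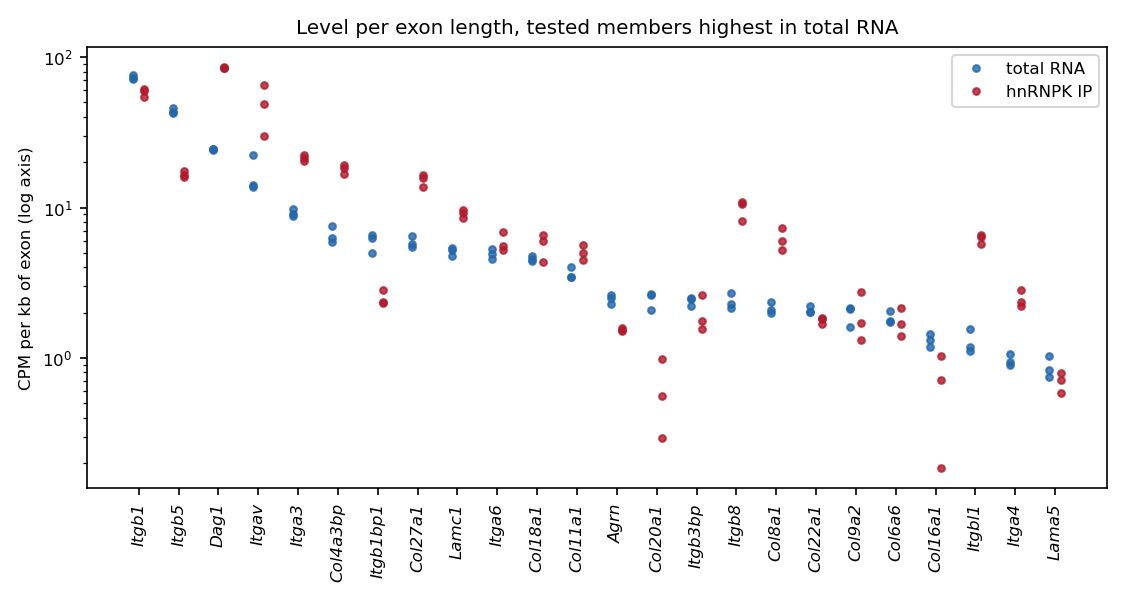
Level per length (CPM per kb of exon, logarithmic axis) of 24 members among the highest in total RNA, with 1 point per library. The mean of Dag1 is 24.3 in total RNA and 85.1 in the IP, and that of Itgb5 is 43.8 and 16.7.

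Transcript length and 3′ UTR length were set beside the fold changes, as a description across genes, which are not independent replicates. Spearman's rho of the log2 fold change with exon length was 0.35 over the 59 members and 0.288 over 16908 genes. With the length of the 3′ UTR it was 0.461 over 55 members and 0.467 over 12560 genes, a value of like size in both sets. Members with a 3′ UTR over 4000 bases (4 genes) had a median log2 fold change of 1.84, with 3 enriched and 0 depleted, and the 17 with 100 to 500 bases a median of −0.22, with 1 enriched and 3 depleted. The medians of all genes in these classes were 1.12 and −1.08. The beta subunits ran in this order, with a 3′ UTR of 5095 bases in Itgb8, 1112 in Itgb1 and 321 in Itgb5. Dag1 has 2625 bases, Itgav 3581, Itga4 6508, Itga1 6994, Agrn 718 and Lama1 198. Enriched members with shorter 3′ UTRs included Hspg2 (965 bases), Col3a1 (959), Col1a2 (882) and Itgal (773), and within the 17 enriched members rho was −0.012. The members' exons are long, with a median of 7013 bp against 3754 bp over all genes tested. With an offset for gene length the members' median was 0.038, against 0.044 for all genes, and 15 were enriched and 10 depleted.

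**Figure D4:**
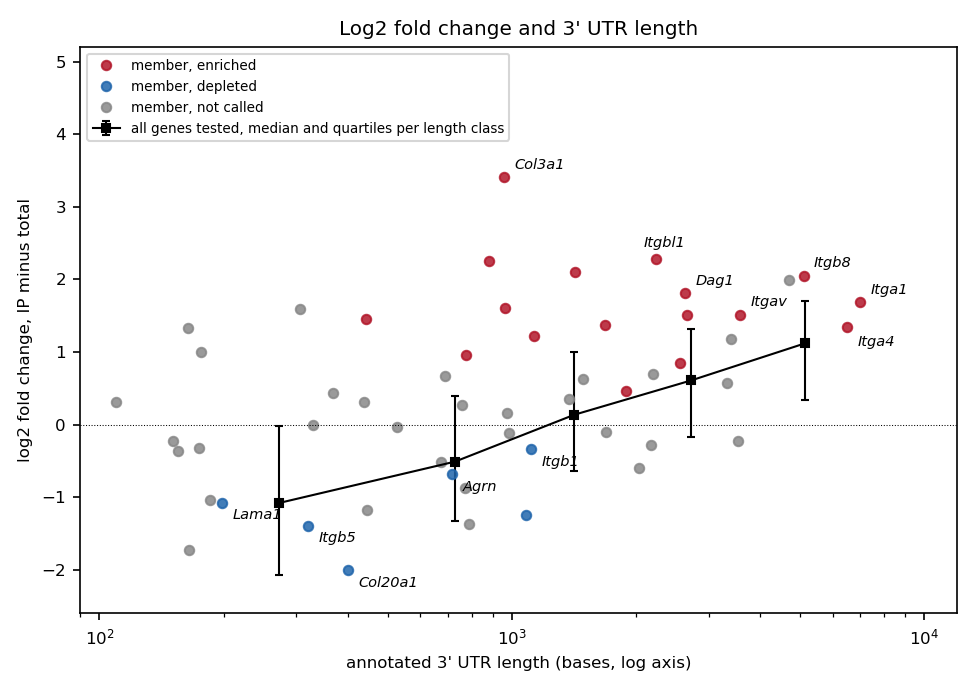
Log2 fold change (hnRNPK IP minus total RNA) against 3′ UTR length in bases (logarithmic axis) for 54 tested members with a 3′ UTR of at least 100 bases, beside the median and quartiles of all genes tested in 5 length classes. Itgb5 (321 bases) lies at −1.39 and Itgb8 (5095 bases) at 2.05.

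Density of CCC did not order the members in the same way. Spearman's rho of the log2 fold change with CCC triplets per kb of 3′ UTR was −0.159 over 55 members and 0.238 over all genes, and with CCC per kb of coding sequence 0.026 and 0.21. The median 3′ UTR held 10.7 triplets per kb in the 17 enriched members, 19.1 in the 6 depleted members with a 3′ UTR and 11.3 over all genes. Collagen coding sequences are rich in CCC, since the chains repeat a motif of glycine with proline: the median was 25.6 triplets per kb, against 12.8 in integrin alpha and 11.5 in integrin beta subunits and 13.6 over all genes. The contrast is shown by the 60-base coding stretches with the most triplets in Col1a1 (chr11:94948726-94948785, plus strand), Col8a1 (chr16:57627907-57627966, minus) and Itgb8 (chr12:119168010-119168069, minus), with capitals as before.
Col1a1: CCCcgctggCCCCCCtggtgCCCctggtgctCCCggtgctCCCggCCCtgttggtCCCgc
Col8a1: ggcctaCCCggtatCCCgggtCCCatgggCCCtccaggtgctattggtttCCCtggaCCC
Itgb8: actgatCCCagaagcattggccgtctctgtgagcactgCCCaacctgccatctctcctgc
Col1a1 has 8 triplets in its stretch, Col8a1 has 6 and Itgb8 has 2, beside log2 fold changes of 2.10, 1.52 and 2.05. Windows of 60 coding bases with at least 5 triplets, laid end to end, made up 1.34% in the tested collagens and 0.542% over all genes. Taken at any start position, at least 1 occurred in 19 of 23 collagens (82.6%) and 23.6% of all genes. Collagen coding sequences are longer, with a median of 4743 bases against 1404 over all genes. The part of length in these shares of genes was not tested. Within the 23 collagens, rho of the fold change with coding CCC density was 0.26.

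Genes that act with these proteins were taken from lists of pathway members, whose calls stand beside 28.9% enriched and 33.6% depleted over all genes tested. Among all genes with a mean of at least 10 CPM these shares were 39.5% and 41.3%, and most focal adhesion genes tested were at that level. Genes named from the lists have at least 5 CPM on average. Focal adhesion and integrin signalling genes had 24 enriched (61.5%) and 3 depleted (7.69%) of 39 tested, and a median log2 fold change of 0.85 against −0.07 for all genes. The highest with at least 5 CPM were the parvin gene Parvb (2.67 ± 0.09), the adaptor Zyx (2.46 ± 0.14) and the Arf regulator Git1 (2.31 ± 0.08). Ptk2, which encodes focal adhesion kinase (−0.64 ± 0.17), and the integrin activator Fermt2 (−0.41 ± 0.12) were depleted. Parvb stood at 495 ± 27.2 CPM in the IP libraries and 77.6 ± 3.75 in total RNA, and Ptk2 at 26.8 ± 5.51 and 41.9 ± 4.04 (SD, n = 3 each). Fermt2 lost its call without IP replicate 1 and without each total RNA library (−0.42 to −0.34), and Ptk2 without total RNA replicate 1 (−0.53). Depleted genes of this list numbered 8 with the offset for gene length and 1 without total RNA replicate 1.

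Genes for collagen synthesis, folding and crosslinking had 7 enriched (21.9%) and 11 depleted (34.4%) of 32 tested, shares near those of all genes, with a median of −0.08. The translocon protein Tram2 (1.37 ± 0.19), the crosslinking enzyme Loxl2 (1.33 ± 0.09) and the lysyl hydroxylase Plod2 (1.18 ± 0.11) were the highest with at least 5 CPM. The prolyl isomerase Ppib had 5.79 ± 0.955 CPM in the IP libraries and 47.3 ± 4.10 in total RNA (−3.03 ± 0.17), and Pcolce2 (−1.96 ± 0.19) and P3h4 (−1.67 ± 0.12) were also depleted. With library totals alone, 4 were enriched. The dystroglycan complex and the enzymes that add its sugars also had 7 enriched (25.9%) and 11 depleted (40.7%), of 27 (median 0.04). The syntrophin gene Sntb2 (1.30 ± 0.25) and utrophin, Utrn (1.24 ± 0.19), were enriched beside Dag1. Dpm3, which supports mannose donor synthesis (−4.64 ± 0.31), and the glycosyltransferases Rxylt1 (−2.10 ± 0.18) and B4gat1 (−1.81 ± 0.17) were depleted.

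Other matrix glycoproteins and proteoglycans had 13 enriched (50.0%) and 2 depleted (7.69%) of 26 tested (median 0.62), and matrix proteases and their inhibitors 9 (34.6%) and 5 (19.2%) of 26 (median 0.77). The hyaluronan receptor Cd44 (2.66 ± 0.22), tenascin R, Tnr (2.50 ± 0.18), and the syndecan Sdc3 (2.09 ± 0.14) led the first, in which Thbs3 (−1.05 ± 0.29) was depleted. Thbs3 lost its call without total RNA replicate 2 (−0.95), where the list had 0 depleted genes. With library totals alone this list had 7 enriched and 5 depleted. Among proteases and inhibitors, the inhibitor Timp2 (1.98 ± 0.11) and the membrane protease Mmp15 (1.85 ± 0.12) were highest among those with at least 5 CPM. Heparanase, Hpse (−0.81 ± 0.17), the plasminogen activator Plat (−0.76 ± 0.18) and Adam15 (−0.46 ± 0.13) were the lowest called genes at that level. Adam15 was no longer called when total RNA library 2 (−0.39) or 3 (−0.38) was left out, and depleted genes of the list numbered 8 with library totals alone, 10 without IP replicate 2 and 3 without total RNA replicate 2 or 3.

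The 33 members that did not pass the filter summed to 0 to 84 reads over the 6 libraries, with a median of 31, and were not tested. Itga8 had no read in any library. Reads came only from total RNA for Col24a1 (11 reads), Col13a1 (4), Lama2 (3) and Itgax (1), and only from the IP for Itgam (7), Col10a1 (6) and Col9a1 (1). A count of 0 in a library allows up to 0.0482 to 0.0909 CPM (3 counts, counting error only). This bound takes each count as independent, which was not tested, and most counts from 1 to 20 were even, as given below. The largest imbalances among the rest were Col7a1 with 1 IP read and 64 in total RNA, and Col6a5 with 70 and 14. The others were collagen chains (Col4a3, Col4a5, Col4a6, Col5a1, Col5a2, Col5a3, Col6a1, Col6a2, Col6a4, Col12a1, Col15a1, Col17a1, Col19a1, Col23a1 and Col26a1), integrins (Itga7, Itga9, Itga11, Itgb2l, Itgb4 and Itgb6) and laminins (Lama3 and Lamc3). These had 2 to 49 reads in the IP and 2 to 35 in total RNA.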

How the data were processed

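Each deposited table gives raw read counts by gene for 1 library. The authors used TopHat2, featureCounts and the mm10 build, per the submitters' processing notes. Not given in the sources used here are versions, annotation release, strand setting and how multiply aligned reads were handled. Of counts from 1 to 20, 58.6% to 68.7% were even in each library, and halved counts were an alternative. Symbols, coordinates, exon lengths and sequences came from GENCODE M21 (GRCm38), which held 53274 of the 53379 gene identifiers.

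Groups came from the sample titles, 3 libraries each. Libraries of a group differed beyond sampling noise in every pair (chi-square per degree of freedom 6.08 to 113). Counts were fitted over all genes in R 4.3.3 with edgeR 4.0.16 (TMM factors, filterByExpr with a minimum count of 10 and a minimum total of 15, glmQLFit and glmQLFTest on the group alone). The threshold was a Benjamini-Hochberg adjusted p of 0.05. CPM carry TMM factors, and levels per kb divide them by the union of exons. DESeq2 1.42.0, limma-voom (limma 3.58.1), other scalings and filters, a gene length offset, a replicate block and fits without 1 library were alternatives. The fit was tested on simulated data.

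The members and lists were chosen with earlier results of these data known. Values per library are given for members with at least 10 CPM on average and for the 3 highest and 3 lowest called members, and for some others chosen after their values were seen. From each list up to 3 highest and 3 lowest called genes with at least 5 CPM are named. A few genes that this rule takes are left out here. Of the list symbols, 6 were not matched. Densities used 1 transcript per gene, that with the longest coding sequence, and 3′ UTRs of at least 100 bases, and C-rich stretches of 30 (3′ UTR) or 60 (coding) bases.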

Additional observations from a re-analysis of the deposited data

How the results depend on the processing

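Over 15 alternatives, 43 called genes among those the rule takes kept direction and call wherever they were tested. With library totals alone, 12 members were depleted and the members' median was −0.12, and enriched genes of collagen synthesis numbered 4. Other matrix genes then had 7 enriched and 5 depleted, and proteases and inhibitors 8 depleted. With the offset for gene length, the median was 0.038, focal adhesion genes had 8 depleted and Col11a1 reversed to −0.17. With at least 5 CPM, where fewer genes were tested, other matrix genes had 1 depleted. The other causes were not tested. Leaving out each library gave 6 to 11 depleted members (11 without IP replicate 1), 3 to 10 depleted proteases and inhibitors, 1 to 4 depleted focal adhesion genes and 0 to 3 depleted other matrix genes. Same-numbered IP and total RNA libraries had correlations of 0.001, −0.071 and 0.12 in their deviations, so the numbers were not shown to pair, and not every library correlated best with its own number. The replicate block gave 16 enriched and 6 depleted members and 4384 and 5364 over all genes, with a members' median of 0.26. At low depth single IP libraries carried all reads of some genes, and 33 members could not be tested.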
